A study of Rattus norvegicus with 6 samples.

Results

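Rab proteins are the largest branch of the Ras superfamily of small GTPases. Each Rab cycles between a GTP-bound form that sits on one kind of membrane and recruits effectors such as tethers and motors, and a GDP-bound form that is kept soluble by a dissociation inhibitor. Exchange factors load GTP, TBC domain proteins speed its hydrolysis, and a prenyl anchor added to the C-terminus holds the active protein on its membrane. Cells that build a matrix, as disc cells do, send collagen and proteoglycan through this system and take up matrix and receptors by it.

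The Rab genes described here are the 57 of 32623 genes in the deposited table whose symbol is Rab, a number and at most 1 letter from a to d, so that interacting proteins such as Rab3gap1 or Rab11fip1 stay out. They were measured by RNA sequencing in cultured nucleus pulposus cells, which fill the soft centre of the intervertebral disc. The library protocol in the labels speaks of an adipose type of RNA, while the cell type and source labels name nucleus pulposus cells. The donors were male Sprague-Dawley rats of 4 weeks, the discs were lumbar, and passages 3 to 5 were used. Both groups had received a lentivirus for 72 hours, carrying a hairpin against Bmal1 in 3 libraries (shBmal1) and a negative control hairpin in the other 3 (shNC). The sources used here do not say which promoter drove the hairpins or how many animals or cultures stand behind the 3 libraries of a group. The p-values therefore reflect the spread among these libraries alone, and it may be technical.

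Bmal1, the clock transcription factor gene listed as Arntl, was at an FPKM (fragments scaled by gene length and library size, as deposited) of 8.38, 9.19 and 9.90 in shNC and of 0.716, 1.39 and 0.690 in shBmal1 (log2 fold change −3.37 ± 0.26, SE, edgeR), with no overlap. Total counts were 4.44-fold higher in shNC than in shBmal1 on average, and mitochondrial rRNA took 0.919% of counts in shBmal1 against 0.0476% in shNC. These differences run with the groups and cannot be told apart from the hairpin, here or in any result that follows. Of 14 nucleus pulposus markers found, 11 had counts in shNC, Acan, Mgp and Pax1 among them, while the notochordal markers Noto, Shh and Tbxt had none in any library. The summed level of these markers was 2849 to 3070 CPM (counts scaled to library size) in shNC and 434 to 455 CPM in shBmal1. Mgp, Acan and Pax1 make up most of that sum. Of 10 tested markers 5 were lower and 1, Foxf1, higher (49.5 and 73 CPM), while Sox9 was at −0.04 and did not pass. Summed levels of endothelial markers were 0.425 to 1.21 CPM and 7.2 to 9.91 CPM, and of leukocyte markers 32.7 to 44.1 CPM and 29.5 to 38.3 CPM, in the same order. The leukocyte sum is mostly Cd14, and Cd68 (0.407 and 2.89 CPM) and Lyz2 (0.575 and 2.75 CPM) were higher in shBmal1. In bulk RNA, fewer cells of a type and less RNA per cell cannot be told apart.

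BMAL1 binds DNA with CLOCK at the E-box CACGTG, so the start-site regions of the Rab genes were read for these letters. RefSeq promoters on build GRCr8, from 250 bases before to 50 bases after the gene start, were matched by symbol for 47 of the 57 genes. The E-box, whose letters are the same on both strands, stood in 4 of these 47 promoters, or 8.51%, beside 7.27% of 19005 protein-coding promoters and 9.33% of 9881 promoters of genes tested here. All 4 belong to early endosomal Rab genes: Rab5a, Rab20, Rab21 and Rab31. Genes without a matched promoter include Rab22a of the same group and Rab1b, Rab2a, Rab2b and Rab33a of the ER and Golgi. Whether the role groups differ in this share was not tested. For Rab5a the RefSeq gene lies on chromosome 9 while the deposited table puts its Rab5a on chromosome 14, so that match is uncertain and its sequence is not shown. The other 3 windows, written 5′ to 3′ on the gene's strand with the E-box in capitals, show where the letters sit. They lie at chr16:84721392-84721427 (forward strand), chr7:52814960-52815025 (reverse) and chr9:112828123-112828188 (reverse), and the E-box begins 5, 52 and 66 bases before the start.
Rab20: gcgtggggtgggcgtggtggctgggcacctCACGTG
Rab21: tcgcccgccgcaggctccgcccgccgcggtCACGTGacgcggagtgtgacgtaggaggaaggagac
Rab31: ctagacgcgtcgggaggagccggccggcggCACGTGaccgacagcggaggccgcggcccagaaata
In the Rab21 window the E-box has gt before it and ac after it. That longer palindrome, known as the CLEAR element of lysosomal gene promoters, stood in 0.353% of all protein-coding promoters and in 1 of the 47 Rab promoters. A match is a description of these letters and not of binding, and the genes that share them moved in different directions, as given below.

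In control cells the family was led by the Rabs of the ER-Golgi route and of the endosomes. Levels of different genes are compared on the FPKM scale, which divides by gene length. Fold changes come from the counts, and the log2 ratio of FPKM ran a median of 0.11 above them. Rab1a, which directs ER-to-Golgi transport, was the highest, at an FPKM of 165, 169 and 179 in the 3 shNC libraries. Rab2a, which acts in Golgi-to-ER retrieval (107, 103 and 119), Rab31, an endosome and trans-Golgi Rab (97.5, 99.6 and 110), and Rab7a, the late endosome and lysosome Rab (96.2, 96.2 and 102), followed. The range of Rab31 overlapped those of Rab2a and Rab7a, while Rab2a stood above Rab7a in every shNC library. Rab11b, of the recycling endosome, stood alone below them at 84.9, 82.4 and 87.2. Rab28 (63.1, 70.8 and 72.6), a Rab linked to cilia, Rab5c (64.6, 63.9 and 66.3), an early endosomal Rab, and Rab18 (66.3, 62.2 and 63.1), found on the ER and lipid droplets, did not differ beyond their spread. These 8 genes made up 56.0% of the summed FPKM of the family in shNC.

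The order at the top differed in shBmal1. Rab7a had the highest mean there, at 137, 152 and 158, with Rab2a at 130, 148 and 159 and Rab1a at 128, 146 and 142, and the 3 ranges overlapped. Rab5c held rank 4 and Rab21, an endocytic Rab that handles integrins, rank 5, up from rank 14 in shNC. Rab18 went from rank 8 to rank 19 and Rab32 from rank 32 to rank 14. The summed FPKM of the family was 1330 to 1409 in shNC and 1186 to 1283 in shBmal1. That gap depends on scaling. With FPKM rescaled to the same total in every library (TPM), the sum was 3243 to 3371 in shNC and 1982 to 2227 in shBmal1.

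At the other end, Rab3c and Rab37, vesicle Rabs of secretory cells, and Rab19 had no count in any library. Rab17 (0, 4 and 11 counts) and Rab38 (0, 8 and 19 counts) had counts in 2 shNC libraries and in no shBmal1 library. Rab44 had no count in shNC and 0, 14 and 16 counts in shBmal1. In a library, a count of 0 allows up to 3 counts, which is 0.0603 to 0.0681 CPM in shNC and 0.257 to 0.342 CPM in shBmal1, for counting error alone. These 6 genes did not reach the minimum for a test.

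**Figure D1:**
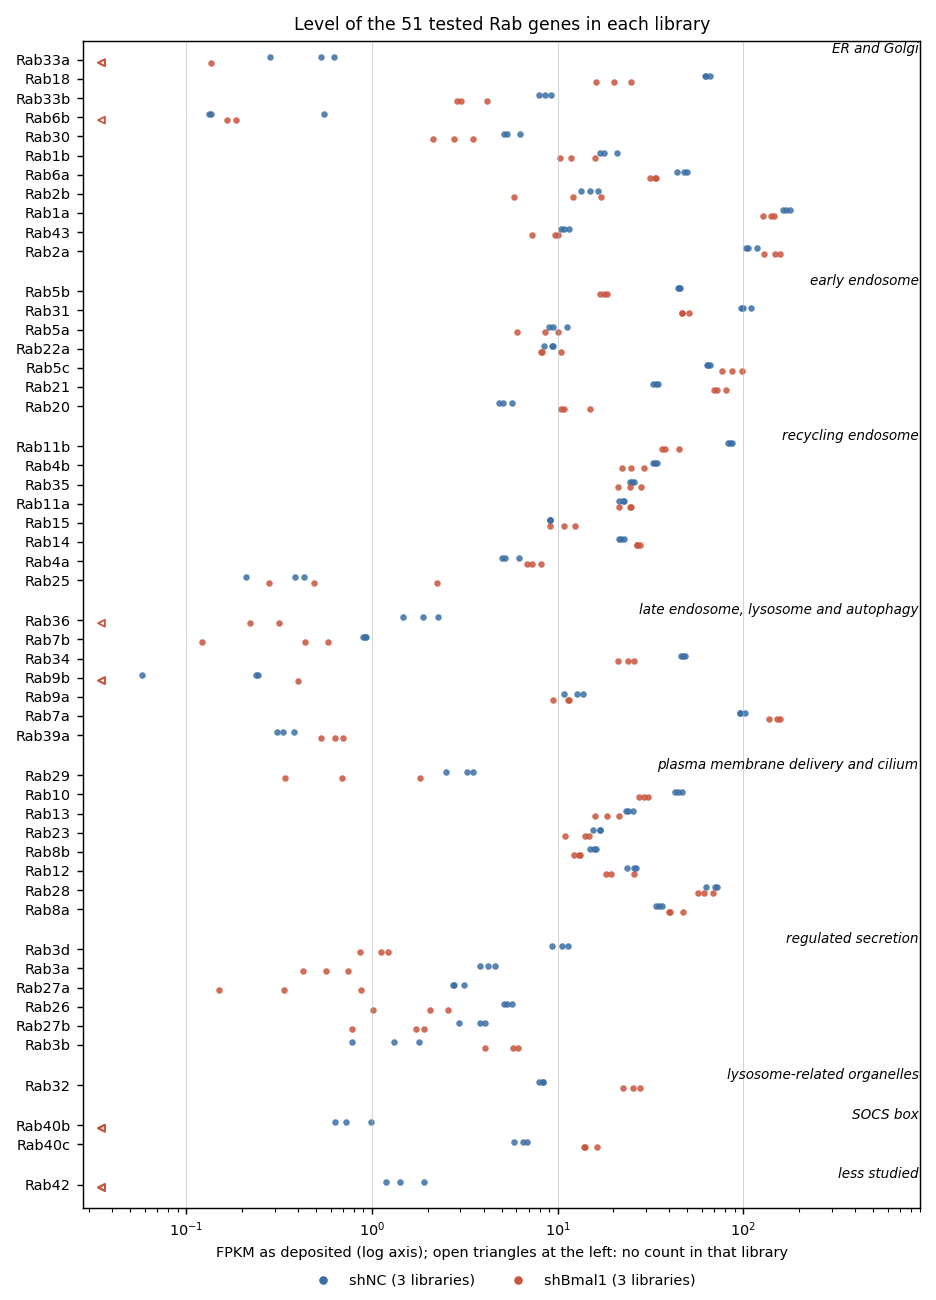
FPKM as deposited of the 51 tested Rab genes, 1 point per library on a log axis, grouped by the membrane each acts on, with open triangles for libraries without a count. The 3 libraries of a group lie close together for abundant genes such as Rab1a and Rab7a, while the regulated secretion Rabs other than Rab3b sit clearly lower in shBmal1.

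Of the 57 Rab genes, 51 had enough counts for edgeR's quasi-likelihood test across all genes. At a Benjamini-Hochberg adjusted p under 0.05, 26 were lower in shBmal1, 9 were higher and 16 did not pass. The background is wide, since 71.3% of 14342 tested genes passed in either direction, 35.3% lower and 36% higher. The Rab genes thus passed about as often as genes at large, with 51% lower and 17.6% higher. Their median log2 fold change was −0.45 beside −0.01 over all tested genes. Of the 51, 3 (Rab40b, Rab42 and Rab33a) reached the filter through shNC alone, with no shBmal1 library over its minimum. Among the other 48 genes, which include Rab36 with 1 shBmal1 library over it, 23 were lower and 9 higher. The balance rests partly on scaling: with FPKM rescaled to TPM (a per-length level with the same total in every library) and tested with limma, 36 Rab genes were lower and 5 higher, where 74.9% of all genes passed, 46.6% lower and 28.3% higher. With quantile-normalized FPKM 30 were lower and 6 higher, where 72.7% of all genes passed, 38.9% lower and 33.7% higher. With TPM the median of all genes was −0.35, and the Rab median lay 0.43 below it, against 0.44 below on the count scale.

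**Figure D2:**
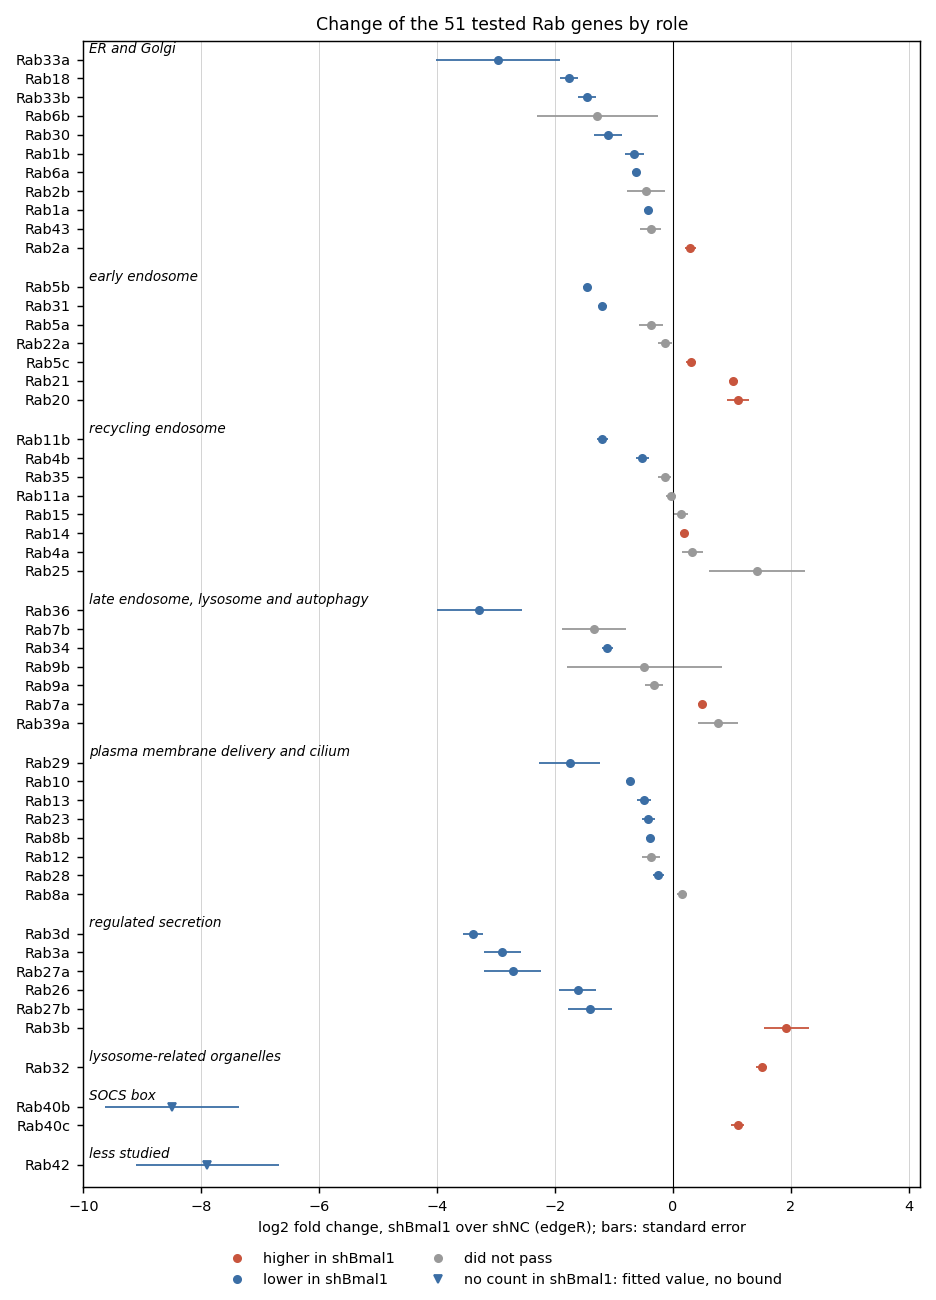
Log2 fold change of shBmal1 over shNC with its standard error (edgeR) for the 51 tested Rab genes, by role. Most points lie left of 0, the secretory Rabs run from −3.39 for Rab3d to 1.92 for Rab3b, and the triangles mark Rab40b and Rab42, which had no count in shBmal1 and whose fitted values are no bound.

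The Rabs of regulated secretion, which dock vesicles at the plasma membrane, were mostly lower. All 6 tested members passed, 5 lower and 1 higher, with a median log2 fold change of −2.17. Rab3d (ENSRNOG00000011582, chromosome 8, 22918699 to 22929294, reverse strand, as the deposited table gives it, with no build named) is best known from secretory granules of gland cells. It had an FPKM of 11.4, 10.6 and 9.31 in shNC and of 1.12, 0.858 and 1.23 in shBmal1, and fell by 3.39 on the log2 scale (SE 0.16, adjusted p = 8.58e-07, edgeR). Rab3a, the synaptic vesicle Rab, was at 4.23, 3.82 and 4.59 against 0.748, 0.425 and 0.567 (log2 fold change −2.89 ± 0.32, SE). Neither gene had overlapping groups. Rab3a overlaps Mpv17l2 on the opposite strand by 874 bases, and Mpv17l2 itself was at 0.08 and did not pass.

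Rab27a, which tethers secretory lysosomes and exosome-bearing endosomes at the cell surface, was at 2.75, 2.78 and 3.12 in shNC and at 0.150, 0.338 and 0.870 in shBmal1 (log2 fold change −2.72 ± 0.48). Its relative Rab27b was at 2.94, 4.06 and 3.81 against 1.91, 0.783 and 1.74 (−1.40 ± 0.38), and Rab26, a vesicle Rab, at 5.71, 5.15 and 5.35 against 2.07, 2.57 and 1.02 (−1.61 ± 0.31). All 3 were lower in each shBmal1 library than in any shNC library, although shBmal1 spread widely, from 4 to 28 counts for Rab27a, which was at −3.55 without shBmal1 replicate 3. Rab3b went the other way, from 0.778, 1.32 and 1.80 to 4.06, 5.77 and 6.15 (1.92 ± 0.38, adjusted p = 0.00221, edgeR). Rab44 enters the test when 1 shNC library or shBmal1 replicate 1 is left out. It then passes the filter only through shBmal1, where it has its counts, so its direction is largely fixed by the filter.

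Rab3a and other vesicle Rabs are abundant in neurons, so neuron markers were read beside them. Of 7, Snap25, Syp and Rbfox3 had no count in any library, and the summed level of the list was 6.25 to 7.70 CPM in shNC and 9.11 to 11.5 CPM in shBmal1. Sytl1 and Sytl4, which encode synaptotagmin-like Rab27 effectors, had log2 fold changes of −2.47 and −1.23 and both passed. Sytl1 had only 0, 14 and 4 counts in shBmal1. Sytl5, of the same family, had 0, 0 and 4 counts in shNC and 0, 8 and 21 in shBmal1, and was not tested. Rab3il1, an exchange factor gene that acts on Rab3 and Rab8 proteins, fell by 2.55, with 3, 4 and 6 counts in shBmal1. For Rab3il1 and Sytl1 only 1 shBmal1 library was over the filter minimum. Both met the filter through shNC, so their direction was largely fixed by it. Rab3gap1 and Rab3gap2, subunits of a complex that acts on Rab3 and Rab18, rose by 0.38 and 0.27, and Myo5a, a myosin that Rab27a recruits in melanocytes, rose by 0.26. Unc13d, which encodes the Rab27 effector Munc13-4, rose from 1.65 ± 0.13 to 9.35 ± 2.35 CPM (SD, n = 3 per group).

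The ER and Golgi Rabs were mostly lower. Of 11 tested, 7 fell, 1 rose and 3 did not pass, with a median of −0.65. Rab18 was at 66.3, 62.2 and 63.1 in shNC and at 25, 16.1 and 20.1 in shBmal1, 3.39-fold lower (log2 fold change −1.76 ± 0.15, adjusted p = 1.67e-05, edgeR). Rab33b, a Golgi Rab that binds the autophagy protein ATG16L1, was at 9.21, 7.96 and 8.55 against 3.02, 2.88 and 4.18 (−1.46 ± 0.16). For both genes the groups stood well apart. Its relative Rab33a had 42, 20 and 33 counts in shNC and 0, 0 and 3 in shBmal1. Its call (−2.97, adjusted p = 0.0346, edgeR) was lost without shBmal1 replicate 1 (0.0884) or 2 (0.101), and without replicate 3, the only shBmal1 library with counts, the estimate was −7.49. Rab33a met the count filter through shNC alone, so its direction was largely fixed by it, and −7.49 is no bound.

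The general transport Rabs of this route changed less. Rab1a fell by 0.42 on the log2 scale (SE 0.07) and Rab1b by 0.65 (SE 0.17). Rab6a, which directs traffic within and out of the Golgi, fell by 0.63, from 44.2, 47.8 and 49.9 to 31.4, 33.7 and 33.9. Rab30, another Golgi Rab, fell by 1.1. Rab2a rose by 0.30 (SE 0.09, adjusted p = 0.0194, edgeR), a call lost without shNC replicate 1 or 2 (0.067 and 0.0796) or shBmal1 replicate 2 or 3 (0.0787 and 0.0935). Its value was −0.079 with TPM, −0.19 with quantile-normalized FPKM and −0.30 with the gene length trend removed. The quantile and length trend values passed as lower (adjusted p = 0.0467 and 0.0204, limma).

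Values that did not pass were −1.28 for Rab6b, −0.45 for Rab2b and −0.38 for Rab43. Rab6b had overlapping groups and was at −0.32 without shNC replicate 3 and −0.71 without shBmal1 replicate 3. Rab2b spread from 5.84 to 17.1 FPKM in shBmal1 and passed without shBmal1 replicate 3 (−0.85, adjusted p = 0.0393, edgeR). It overlaps Tox4 on the opposite strand by 211 bases, and Tox4 was higher in shBmal1 by 1.66. No source used here says whether counting used strand.

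Early endosomal Rabs were split, with 3 of 7 higher, 2 lower and 2 not passing, and a median of −0.13. Rab5 proteins drive fusion of incoming vesicles, and their 3 genes differed from one another. Rab5b was at 44.3, 45.7 and 45.1 in shNC and at 17.8, 18.4 and 17 in shBmal1 (log2 fold change −1.46 ± 0.06, adjusted p = 5.48e-07, edgeR), with the smallest standard error among the Rab genes that changed at least 2-fold. Rab5c was at 64.6, 63.9 and 66.3 against 76.7, 86.8 and 98.1 (0.31 ± 0.09), though its value was −0.065 with TPM and −0.13 on quantile-normalized FPKM, and 0.20 when shBmal1 replicate 3 was left out. Rab5a, which overlaps Pp2d1 on the opposite strand, was at 9.46, 11.2 and 9.05 against 8.52, 10.1 and 6.07, with overlapping groups, and did not pass (−0.38 ± 0.21). It passed without shBmal1 replicate 2 (−0.59, adjusted p = 0.0377, edgeR).

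Rab21 (ENSRNOG00000003923, chromosome 7, 58261992 to 58286770, reverse strand in the deposited table) was at 33.9, 32.9 and 34.8 in shNC and at 72.4, 69.9 and 81.0 in shBmal1, 2.03-fold higher (log2 fold change 1.02 ± 0.07, adjusted p = 7.37e-06, edgeR). Rab20, an endosome and phagosome Rab, was at 5.70, 5.10 and 4.84 against 10.8, 15 and 10.4 (1.1 ± 0.19). Rab31 was at 97.5, 99.6 and 110 against 51.3, 46.6 and 46.6 (−1.20 ± 0.07). None of these 3 genes had overlapping groups, so of the 3 promoters printed above, those of Rab20 and Rab21 belong to genes that rose and that of Rab31 to a gene that fell. Rab22a, the closest relative of Rab31, was at 9.46, 8.5 and 9.36 against 8.13, 10.5 and 8.27 and did not pass (−0.13). It passed without shBmal1 replicate 2 (−0.29, adjusted p = 0.0187, edgeR), and with the length trend removed it was at 0.31.

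Among the recycling Rabs, which return cargo to the surface, 2 of 8 tested fell, 1 rose and 5 did not pass. Rab11b was at 84.9, 82.4 and 87.2 in shNC and at 45.1, 38.1 and 36.5 in shBmal1 (log2 fold change −1.20 ± 0.09). Rab11a, its near twin, was at 21.4, 22.6 and 22.8 against 25, 21.4 and 24.6 and did not pass (−0.024 ± 0.084). Its value was 0.036 under RLE size factors and 0.094 with the length trend removed. With TPM Rab11a passed as lower (−0.39, adjusted p = 0.00255, limma), at −0.045 relative to the median of all genes. Rab4b, of the fast recycling route, fell by 0.52 (SE 0.11). Rab4a was at 5.18, 6.18 and 5.01 against 7.25, 8.18 and 6.84 (0.33) and did not pass, and its value was −0.034 with TPM.

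Rab14, which works between endosomes and the Golgi, was at 22.1, 21.5 and 22.8 against 26.7, 26.9 and 27.9. Its small rise (0.19 ± 0.06, adjusted p = 0.02, edgeR) was lost without any 1 shNC library (0.0633, 0.0965 and 0.0519 for replicates 1, 2 and 3) and without shBmal1 replicate 2 or 3 (0.0669 and 0.0743). With TPM Rab14 passed as lower (−0.18, adjusted p = 0.0444, limma). Rab15 was at 9.09, 9.14 and 9.16 in shNC and at 12.4, 9.16 and 10.9 in shBmal1 (0.13, not passed), and was at −0.24 with TPM. With the length trend removed Rab15 passed as higher (0.35, adjusted p = 0.0353, limma). Rab35 (−0.14) did not pass, but did without shBmal1 replicate 1 (−0.28, adjusted p = 0.0183, edgeR). Rab25, an epithelial relative of Rab11, had 21, 12 and 21 counts in shNC and 23, 4 and 7 in shBmal1 (1.43, not passed), and was at 0.12 without shBmal1 replicate 1. The library with 23 counts, shBmal1 replicate 1, also had the highest sum of the 5 epithelial markers, 154 CPM, against 12 and 47.5 CPM in the other shBmal1 libraries and 15.9 to 28.1 CPM in shNC. The part of epithelial cells in the Rab25 level was not tested.

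**Figure D3:**
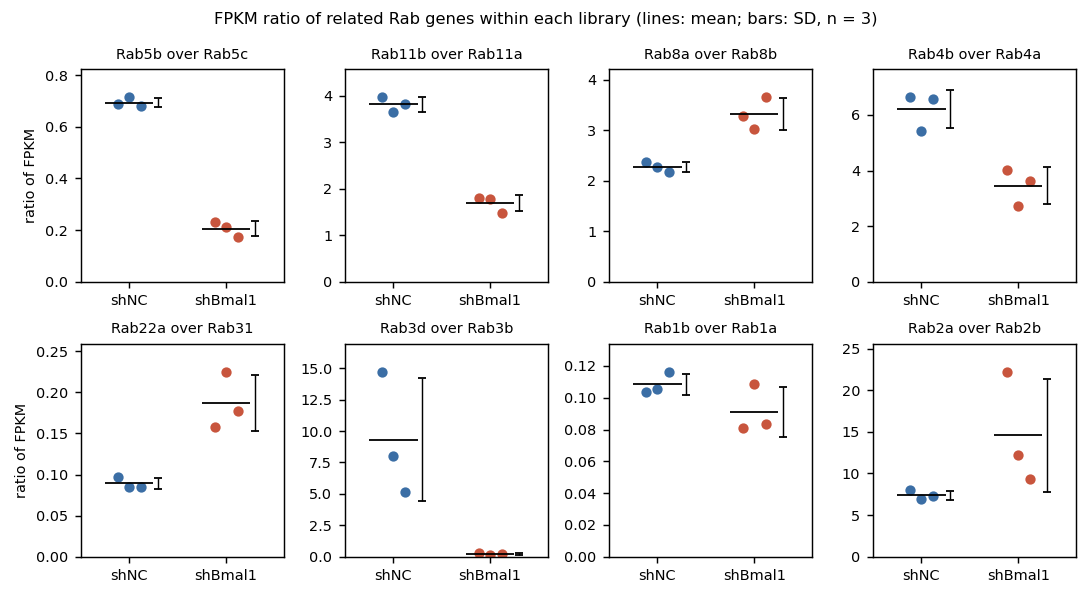
Ratio of the FPKM of 2 related Rab genes within each library, with the mean and SD of 3 libraries per group; every axis starts at 0. Rab5b over Rab5c, Rab11b over Rab11a, Rab4b over Rab4a and Rab3d over Rab3b are lower in all shBmal1 libraries, Rab8a over Rab8b, Rab22a over Rab31 and Rab2a over Rab2b are higher, and Rab1b over Rab1a overlaps between groups.

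A ratio of 2 genes within a library does not depend on a factor that scales the whole library, so related Rabs were also compared in that way. Quantile normalization and removal of the length trend are not such factors and can change the ratio. The ratio of Rab5b to Rab5c was 0.694 ± 0.019 in shNC and 0.206 ± 0.030 in shBmal1 (SD, n = 3 libraries per group), and that of Rab11b to Rab11a was 3.81 ± 0.16 and 1.69 ± 0.18. Rab4b over Rab4a went from 6.21 ± 0.68 to 3.45 ± 0.66, and Rab8a over Rab8b from 2.27 ± 0.10 to 3.32 ± 0.32. For Rab22a over Rab31 the ratio was 0.0892 ± 0.0068 in shNC and 0.187 ± 0.034 in shBmal1. None of these 5 ratios overlapped between groups, and each had an exact two-sided permutation p of 0.1, the smallest that 3 against 3 libraries allow. The pairs were chosen partly after their values were seen, and pairs of other genes were not compared. The lack of overlap is therefore a description of these pairs only. Rab3d over Rab3b had the widest gap, with 14.7, 8.04 and 5.18 in shNC and 0.276, 0.149 and 0.199 in shBmal1. The ratio of Rab1b to Rab1a, 0.108 ± 0.007 against 0.0910 ± 0.0155, overlapped (exact two-sided permutation p = 0.3). Such a ratio shows that 2 genes changed unequally and not that either stayed as it was.

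The late endosome, lysosome and autophagy Rabs held 1 that rose, 2 that fell and 4 that did not pass. Rab7a rose 1.40-fold, from 96.2, 96.2 and 102 to 137, 152 and 158 without overlap (log2 fold change 0.49 ± 0.07, adjusted p = 0.00027, edgeR). With TPM it was at 0.12 and with quantile-normalized FPKM at 0.01, and neither passed. Relative to the median of all genes it was at 0.50 with counts, 0.46 with TPM and 0.098 with quantile-normalized FPKM. Rab34, which acts on lysosome position and in ciliogenesis, was at 48.6, 47.2 and 46.4 against 23.9, 21.0 and 25.7 (−1.12 ± 0.09). Rab36 had 91, 145 and 108 counts in shNC and 0, 5 and 4 in shBmal1 (−3.28 ± 0.72). Only 1 shBmal1 library was over the filter minimum. Rab36 thus met the filter through shNC, and its direction was largely fixed by it.

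The remaining late endosomal members were uncertain. Rab7b had 119, 121 and 105 counts against 11, 19 and 4, with groups that did not overlap, and just missed the threshold (−1.34, adjusted p = 0.0541, edgeR). It passed without shBmal1 replicate 2 (−1.84, adjusted p = 0.0268, edgeR). Rab9a, which returns mannose 6-phosphate receptors to the Golgi, was at −0.32 and Rab39a at 0.77. Rab9b had 11, 48 and 42 counts in shNC and 0, 0 and 19 in shBmal1 (−0.48), so 1 library sets its value. Without that library, shBmal1 replicate 3, it was at −7.56 (adjusted p = 0.0199, edgeR). No shBmal1 count of Rab9b remained in that fit, and it met the count filter through shNC alone. Its direction was then largely fixed by the filter, and the fitted value is no bound.

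Of the 8 Rabs of surface delivery and the cilium, 6 fell, 0 rose and 2 did not pass, with a median of −0.40. At an unadjusted p under 0.05 the number higher was still 0 with edgeR, and DESeq2 called 1 higher, Rab8a. Rab29, a Rab that binds the kinase LRRK2, had 215, 311 and 259 counts in shNC and 12, 8 and 39 in shBmal1 (log2 fold change −1.75 ± 0.52). With shNC replicate 2 left out it missed the threshold (adjusted p = 0.0545, edgeR) and was at −2.65 without shBmal1 replicate 3. Rab10, which delivers glucose transporters and other cargo to the surface, was at 42.9, 46.7 and 44.6 against 30.7, 27.6 and 29.3 (−0.73 ± 0.07). Rab13 (−0.49), known from cell junctions, Rab23 (−0.41), a negative regulator of Hedgehog signalling, and Rab8b (−0.39) fell by smaller amounts.

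Rab28 was at 63.1, 70.8 and 72.6 in shNC and at 61.8, 68.9 and 57.2 in shBmal1, the only called Rab gene whose FPKM overlapped between groups. Its change (−0.25 ± 0.09, adjusted p = 0.0385, edgeR) was lost without shNC replicate 2 or 3 (0.109 and 0.113) or shBmal1 replicate 3 (0.0677). Rab23 lost its call without shNC replicate 1 (0.0509). Rab8a, which delivers membrane to the surface and the cilium, was at 35.3, 36.6 and 33.9 against 40.3, 39.8 and 47.4. The groups did not overlap, but it did not pass (0.16), and its value was −0.22 with TPM at a pseudocount of 0.1. Rab12 (−0.37) did not pass, and did without shBmal1 replicate 3 (−0.56, adjusted p = 0.00628, edgeR). With the gene length trend removed, Rab8b (−0.07) and Rab23 (−0.14) no longer passed.

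Of the Rabs of lysosome-related organelles, Rab32 passed and Rab38 was too low to test. Rab32 (ENSRNOG00000014258, chromosome 1, 4637491 to 4653210, reverse strand in the deposited table), which also sits on mitochondria, was at 7.97, 8.33 and 8.30 in shNC and at 27.7, 22.4 and 25.6 in shBmal1, 2.85-fold higher (log2 fold change 1.51 ± 0.09, adjusted p = 3.17e-06, edgeR). The SOCS box Rabs, which join cullin ubiquitin ligases, went opposite ways. Rab40c rose from 5.80, 6.88 and 6.52 to 13.9, 16.3 and 14.1 (1.1 ± 0.12), without overlap. It shares 4500 bases with Mettl26 on the opposite strand, which was at 0.02 and did not pass.

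Rab40b had 92, 70 and 54 counts in shNC and none in shBmal1. Measured against a floor of 3 counts over the shBmal1 group, it was at least 18.1-fold lower. Rab42 had 38, 63 and 42 counts in shNC and none in shBmal1, at least 11.9-fold lower by the same floor. Both met the count filter through shNC, so their direction was largely fixed by it.

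**Figure D4:**
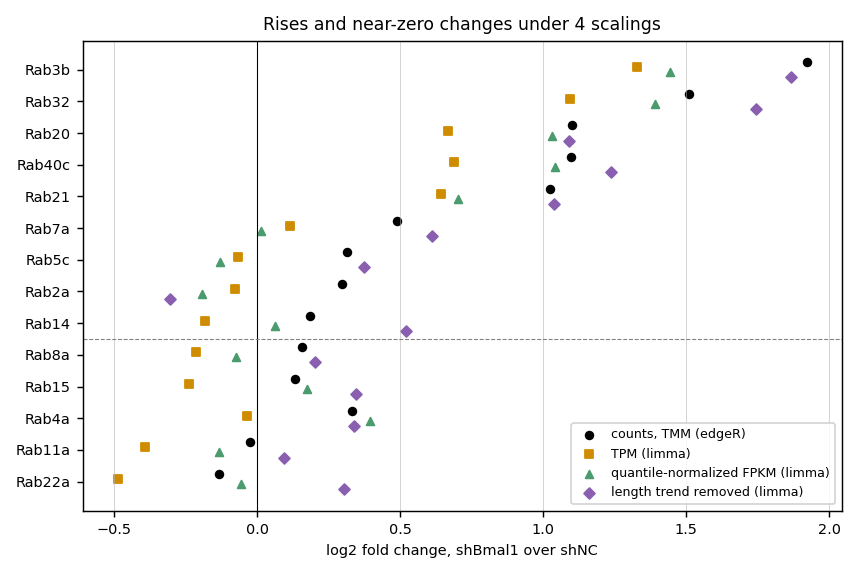
Log2 fold change, shBmal1 over shNC, of the 9 Rab genes called higher (above the dashed line) and of 5 genes near 0, under 4 scalings. Rab3b, Rab32, Rab20, Rab40c and Rab21 stay right of 0.6 under all 4, while Rab5c, Rab2a and Rab14 lie on both sides of 0 and Rab7a lies at 0.12 with TPM.

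The 5 rises that reached 2-fold, Rab3b, Rab32, Rab20, Rab40c and Rab21, kept their direction and call with TPM, with quantile-normalized FPKM and with the length trend removed. The 4 smaller ones, Rab7a, Rab5c, Rab2a and Rab14, missed the threshold or turned in sign with TPM, where the median of all genes was itself at −0.35. Rab14 passed as lower with TPM, as did Rab2a with quantile-normalized FPKM and with the length trend removed. Relative to the median of all genes, Rab5c was at 0.33 with counts and 0.28 with TPM, Rab2a at 0.31 and 0.27, and Rab14 at 0.20 and 0.16. Of the 26 genes that fell, 17 did so at least 2-fold, among them Rab40b, Rab42 and Rab33a, which reached the filter through shNC alone. The share of all genes called with a change of at least 2-fold, in either direction, was not computed. With TPM, 9 ER and Golgi Rabs, 5 recycling Rabs and 4 late endosomal Rabs were lower, and Rab2a, Rab14 and Rab7a, the 1 rise in each of these groups, were no longer called higher, on a scale that lowers the median of all genes as given above. Of the early endosomal Rabs 4 were then lower and 2 higher. Among the surface and cilium Rabs 7 were then lower, and the secretory Rabs stayed at 5 lower and 1 higher.

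The core machinery that all Rabs share was lower or did not pass. Of 7 tested genes, 4 fell, 0 rose and 3 did not pass, with a median of −0.72. Gdi2, which encodes a dissociation inhibitor that keeps Rabs soluble, fell from 296 ± 4 to 180 ± 10 CPM (SD, n = 3 per group; log2 fold change −0.72). Rabggta, a subunit of the enzyme that attaches the prenyl anchor, fell by 0.95 and Rabac1, a Rab acceptor, by 0.40. The escort protein gene Chm (0.29), the other prenyl transferase subunit gene Rabggtb (−0.12) and Rabif (−1.58) did not pass. At an unadjusted p under 0.05 and with DESeq2 the number higher was also 0, while 1 was higher with quantile-normalized FPKM. Rabif spread from 44 to 1055 counts in shNC alone.

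Exchange factors held 21 that fell and 8 that rose among 33 tested (median −0.32), but with the gene length trend removed 12 were lower and 10 higher. The split over all genes in that setting was not computed. Rin2, which acts on Rab5, fell from 48.2 ± 0.1 to 7.19 ± 2.28 CPM, Dennd2b by 2.71, Dennd1a, which acts on Rab35, by 1.46 and Sbf2 by 1.3. Rabgef1, the Rab5 exchange factor Rabex-5, rose from 22.4 ± 0.6 to 53.5 ± 1.8 CPM (log2 fold change 1.26), Rin1, also of Rab5, by 1.09, Mon1b, a subunit of the Rab7 exchange factor, by 1.0 and Dennd1b by 0.77. Mon1a, the paralog of Mon1b, fell by 0.76.

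TBC domain genes, most of which encode Rab GTPase-activating proteins, held 23 that fell and 5 that rose among 33 tested (median −0.82). Sgsm2 fell by 2.94, Tbc1d2b by 2.34, Tbc1d9b by 1.88 and Tbc1d13 by 1.31. Tbc1d15, which acts on Rab7, rose from 37.3 ± 0.9 to 173 ± 11 CPM (log2 fold change 2.22), Tbc1d17 by 0.98, Tbc1d9 by 2.09 and Tbc1d20, which acts on Rab1 and Rab18, by 0.51.

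Of 46 tested rows for Rab effectors, 24 fell, 8 rose and 14 did not pass, with a median of −0.85. Eea1, the tether of early endosomes that binds Rab5, rose from 39.8 ± 2.3 to 90.6 ± 5.1 CPM (log2 fold change 1.19) and Appl1, another Rab5 effector, by 0.99, as did Rufy3 by 1.11. Bicd2, a dynein adaptor that binds Rab6, fell by 1.81, Rab11fip3 by 1.39, Osbpl1a, which binds Rab7, by 1.58 and Ehbp1l1 by 0.93. Rilp, the Rab7 effector that recruits dynein, had 265 counts over the shNC libraries and none in shBmal1. Of the kinase genes that phosphorylate Rabs, Lrrk1 fell from 88.3 ± 3.5 to 17.1 ± 2.8 CPM (−2.37) and Lrrk2 by 0.45.

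**Figure D5:**
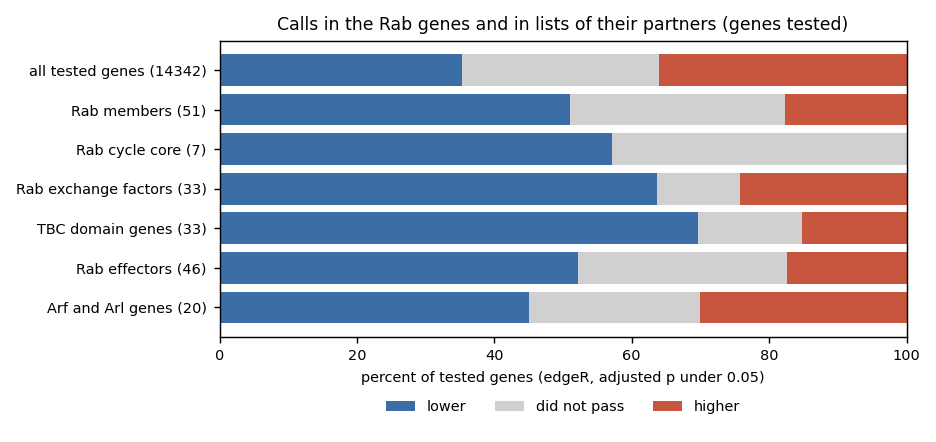
Share of tested genes called lower, not passed and called higher (edgeR, adjusted p under 0.05) in all genes, the Rab genes, 4 lists of their partners and the Arf and Arl genes, with the number tested in brackets. All genes divide almost evenly between lower and higher, while lower calls outnumber higher ones in each of the other bars.

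All these partner genes together, 122 tested, held 74 lower and 21 higher (60.7% and 17.2%), where 35.3% of all genes were lower and 36% higher. With TPM 85 were lower and 13 higher (69.7% and 10.7%), where 46.6% of all genes were lower and 28.3% higher. With the length trend removed 57 were lower and 28 higher. In that setting 9847 genes were called in all, and their split by direction was not computed. By list, TPM gave 22 lower and 4 higher exchange factors and 32 lower and 5 higher effectors. The Arf and Arl genes, a sister family of vesicle GTPases, held 9 lower and 6 higher of 20 tested, with a median of −0.19. The difference between these families was not tested.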

How the data were processed

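Poly(A) RNA selected from total RNA, per the labels' protocols, was sequenced in 6 libraries, 3 shNC and 3 shBmal1. The deposited table holds raw read counts and FPKM values per gene, per the file headers. Per the submitters' processing notes the tools were HISAT2 2.0.4 and StringTie 1.3.4d, with cutadapt 1.9, DESeq2 and edgeR also listed, without their roles. Genome build, annotation, counting program and strand use: not given in the sources used here. Genes without a count carry a small placeholder in the deposited FPKM columns and are printed as 0; means and sums of FPKM keep the placeholder.

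Counts were tested with edgeR 4.0.16 in R 4.3.3 (TMM scaling, filterByExpr with a minimum count of 10 and total of 15, quasi-likelihood test, Benjamini-Hochberg adjusted p under 0.05 over 14342 genes). CPM are counts scaled to library size. Libraries held 44043803 to 49783710 counts (shNC) or 8773762 to 11679587 counts (shBmal1), and floors of 3 counts cover counting error only. Alternatives were RLE size factors, DESeq2 1.42.0, no filter, limma 3.58.1 on log2(TPM + 1) and log2(TPM + 0.1) from the deposited FPKM, on quantile-normalized log2(FPKM + 1) and on log2 CPM with the gene length trend removed, a replicate block, and each library left out. On the log2(value + pseudocount) scale the change of low genes is understated. The procedure was also run on simulated data in which far fewer genes changed than were called here. That run therefore does not bear on the scaling between the groups.

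The Rab genes, the role groups, the partner lists and the pairs were chosen with earlier results of these data known, the pairs partly after their values were seen. All Rab genes are accounted for. Values in every library were given for the 12 largest called rises and falls without overlap, the 8 genes highest in shNC and those that turn direction with scaling, as counts where counts were few. Partner genes named are up to 4 per direction and list with the smallest p. Mon1a, Rab3gap1, Rab3gap2, Myo5a, Rab3il1, Sytl1, Sytl4, Sytl5 and Rilp were added after their values were seen. The values of 1 partner gene are not reported here.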

Additional observations from a re-analysis of the deposited data

How the results depend on the processing

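Of the 35 Rab genes called, 26 kept their direction and call under every alternative that tested them. Rab40b and Rab42 are among the 26, but had no count in shBmal1, so no alternative could turn their direction. The share of calls kept over all genes was not computed. With the length trend removed 57 partner genes were lower and 28 higher, a setting whose split over all genes was not computed. With TPM at either pseudocount, 5 Rab genes and 13 partner genes were higher, against 9 and 21 with counts. Signs turned with TPM (pseudocounts 1 and 0.1) for Rab14 (−0.18 and −0.19), Rab15 (−0.24 and −0.25), Rab2a (−0.079 for both, −0.19 with quantile-normalized FPKM and −0.30 with the length trend removed), Rab4a (−0.034 and −0.037), Rab5c (−0.065 and −0.066, −0.13 with quantiles) and Rab8a (−0.21 and −0.22, −0.072 with quantiles). TPM puts the median of all genes at −0.35, and relative to it these 6 genes stayed above 0 at pseudocount 1, from 0.11 for Rab15 to 0.31 for Rab4a. Rab14 passed as lower with TPM at both pseudocounts, and Rab2a did with quantile-normalized FPKM and with the length trend removed. Rab22a was at 0.31 with the length trend removed. Rab11a was at 0.036 with RLE, 0.035 with DESeq2 and 0.094 with the length trend removed. Both Rab11a and Rab22a passed as lower with TPM at either pseudocount. With each library left out in turn, values ran from −0.0999 to 0.0094 for Rab11a, from −0.013 to 0.21 for Rab15 and from −7.56 to 0.069 for Rab9b. The −7.56 comes from a fit without any Rab9b count in shBmal1 and is no bound. The cause of the other turns was not tested. Leaving out each library gave 7 to 10 Rab genes higher and 22 to 28 lower, 20 to 24 partner genes higher and 66 to 75 lower, 9274 to 10617 genes called in all and −3.84 to −3.21 for Bmal1. Same-numbered libraries did not deviate together (correlations −0.0705, −0.00258 and 0.0203). That cannot show whether they shared an animal, culture or batch, which the sources used here do not state. With a replicate block, 8 Rab genes were higher and 24 lower, and Rab14, Rab28 and Rab33a no longer passed. The lower depth of shBmal1 limits genes with few counts, such as Rab9b, Rab33a and Rab36.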
